A study of Mus musculus with 8 samples.

Results

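The genes described here are 10 growth regulators of the mouse, most of them imprinted: *Igf2*, *H19*, *Igf2r*, *Igf1r*, *Dlk1*, *Peg3*, *Mest*, *Cdkn1c*, *Grb10* and *Plagl1*. They were chosen by name, with no value in the rule but with earlier results of these data known. Every non-control probe that the arrays carry for them was taken. That gave 23 probes, all of them usable on all 8 arrays, for 10 of the 35560 genes that the arrays name. Each array measured RNA made from the cDNA of a single cell of the endocardium, the inner lining of the heart. The cells were picked from embryos at E8.5 with 9 somites, and the labels give 5 min of trypsin for all 8. The 4 WT cells were Mesp1+/+ Sox17flox/flox and the 4 KO cells were Mesp1Cre/+ Sox17flox/flox. Both genotypes thus carried the floxed *Sox17* alleles, and the KO cells alone carried Cre at the *Mesp1* locus, which acts in early mesoderm and so also in the precursors of the myocardium and the vessels. *Sox17* encodes a transcription factor of endoderm and arterial endothelium, and the comparison asks what its loss does to endocardium cells. The WT cells carried no Cre, so that an effect of Cre itself and of the heterozygous *Mesp1* locus cannot be told apart from the loss of *Sox17*.

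Imprinted genes are expressed from the copy of only one parent. *Igf2*, made from the paternal copy, encodes a fetal growth factor that acts through the IGF1 receptor, and the IGF2 receptor takes IGF2 up for destruction in lysosomes. *Igf2* and the noncoding RNA gene *H19* lie next to each other and compete for the same enhancers, with *H19* made from the maternal copy. Maternally expressed members (*H19*, *Igf2r*, *Cdkn1c* and, in most tissues, *Grb10*) tend to restrain growth, and paternally expressed ones (*Igf2*, *Dlk1*, *Peg3*, *Mest*, *Plagl1*) include promoters of fetal growth. *Igf1r* itself is not imprinted in mouse and stands here as the signaling receptor. In the early heart, IGF2 comes largely from the epicardium and endocardium and acts on the myocardium. These arrays measure the RNA of a gene and do not tell its parental copies apart.

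The scanner software called 11370 to 18175 of 55295 usable probes well above background in a cell, 11370 to 18175 in WT and 12781 to 16853 in KO cells, and the scaling factors of the arrays ran from 0.602 to 2.36. Values are log2 of the scaled signal, with signals under 50 set to 50, so that 5.64 is the floor and values at it have no order. "Detected" means well above background by the scanner's call, and a detected probe may still lie at the floor. The 2 *Sox17* probes were detected in none of the 8 cells, WT cells included, so that the deletion could not be checked with them. Of the 10 endothelial markers, WT cells had 7 to 10 detected and KO cells 6 to 9. Of 9 cardiomyocyte markers, 3 to 7 were also detected in the cells of each genotype. Their scaled signals summed to 318, 34056, 3212 and 8591 in WT cells 1 to 4, and to 48719, 1001, 6735 and 28948 in the KO cells. In WT cell 2, KO cell 1 and KO cell 4 these sums were above the sums of the endothelial markers in the same cells (10037, 7045 and 13906). No blood and no endoderm marker rose above the floor in any cell. Smooth muscle markers summed to 14376 in WT cell 2 and 7724 in KO cell 4, against 57.3 to 270 in the other cells, and mesenchyme markers reached 2410 in KO cell 4 against at most 321 elsewhere. The part of cells or RNA of other types in the members' values was not tested. The embryo of a cell is not named, so that each genotype counts as 1 sample: no test was made, and differences (KO minus WT, of mean log2 signals) are given with the SD between cells pooled over genotypes, n = 4 cells each. All 8 arrays lay on 1 slide, where no column held both genotypes, and column and genotype cannot be told apart. Each of the 4 rows of the slide held the WT and the KO cell of the same number, so that differences within rows can be given.

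At the probe with the highest mean, the members fell into a group detected in every cell and a group detected in few cells or none. The part of probe position in this split was not tested. *H19*, *Igf2r*, *Mest*, *Cdkn1c* and *Plagl1* were detected in all 8 cells, which is 5 of the 9 members detected at all (55.6%), whereas 32.1% of the 19142 genes detected in at least 1 cell were detected in all 8. *Igf2*, *Igf1r*, *Dlk1* and *Grb10* were detected in 1 or 2 cells each, and *Peg3* in none. The WT cells, in order from 1 to 4, had 7, 6, 6 and 7 members detected, and the KO cells 5, 5, 6 and 5. No member was at least 5-fold higher or lower in the mean of the KO cells, against 3.41% of the genes detected in at least 1 cell for higher and 3.43% for lower. No member had all KO cells above all WT cells, and none had all KO cells below, against 1.2% and 0.261% of those genes. The median difference over the 9 detected members was -0.47, and over the 5 detected in all cells it was -0.26, beside 0 and 0.14 over all genes detected in at least 1 cell and in all 8.

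**Figure D1:**
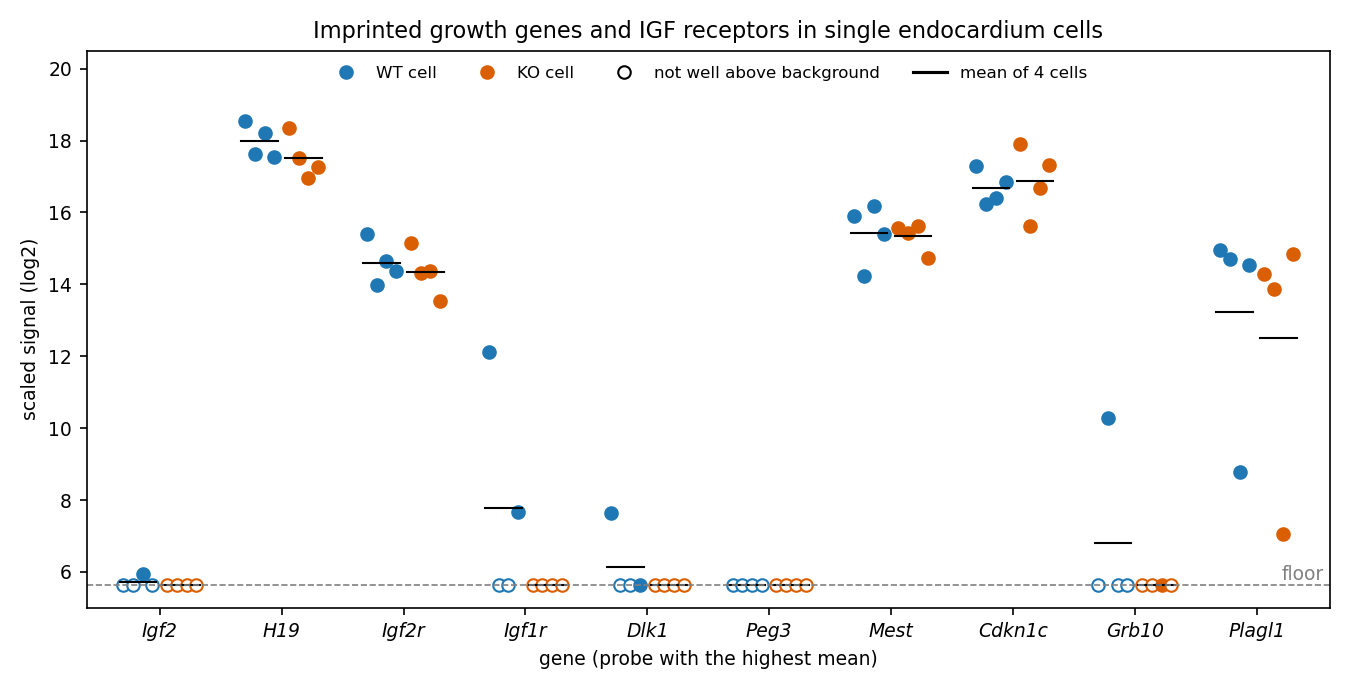
Scaled signal (log2) of each of the 10 genes at its probe with the highest mean, for 4 WT and 4 KO cells, with horizontal bars for the mean of 4 cells and open circles for cells not well above background. The WT and KO points of *H19*, *Igf2r*, *Mest* and *Cdkn1c* overlap, *Plagl1* drops in WT cell 3 (8.77) and KO cell 3 (7.06), and *Igf1r* and *Grb10* rise above the floor in WT cells only.

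*H19*, the maternally expressed noncoding RNA of the *Igf2* locus, was read by 7 probes within its annotated range, chr7:149761435-149764019 on the reverse strand of mm9. The files do not give its exons. The 7 probes are shown because they read the same RNA at different distances from its 3′ end, which sets apart signals that could otherwise be taken for 1 gene value. They share runs of at most 8 bases with each other, so that they are separate reads of the RNA. In order of their distance from the annotated 3′ end, their 60 bases are:
A_55_P1961127: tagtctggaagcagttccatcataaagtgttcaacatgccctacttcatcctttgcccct
A_30_P01021588: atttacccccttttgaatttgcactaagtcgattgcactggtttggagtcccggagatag
A_30_P01025068: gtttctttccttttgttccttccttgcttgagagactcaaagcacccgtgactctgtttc
A_30_P01028007: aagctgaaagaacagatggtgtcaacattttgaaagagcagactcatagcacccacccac
A_30_P01028827: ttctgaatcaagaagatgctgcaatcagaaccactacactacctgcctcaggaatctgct
A_30_P01026972: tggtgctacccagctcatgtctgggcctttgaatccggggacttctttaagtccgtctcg
A_55_P1961125: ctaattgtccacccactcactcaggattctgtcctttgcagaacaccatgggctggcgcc
They lie at chr7:149761492-149761551, chr7:149761693-149761752, chr7:149761756-149761815, chr7:149761957-149762016, chr7:149762113-149762172, chr7:149762173-149762232 and chr7:149762417-149762476, that is 57, 258, 321, 522, 678, 738 and 982 bases from that end.

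At the probe 57 bases from the 3′ end, A_55_P1961127, the WT cells read 18.56, 17.64, 18.21 and 17.54 for *H19*, in order from cell 1 to cell 4 as in all lists that follow, and the KO cells read 18.34, 17.51, 16.96 and 17.27. WT cell 1 was highest and KO cell 3 lowest, and KO cell 1 lay among the WT cells while the other KO cells lay below all of them. The difference was -0.47 with an SD between cells of 0.54, and within the 4 slide rows it was -0.22, -0.12, -1.25 and -0.27. Without KO cell 1 it was -0.74 and the cells of the genotypes no longer overlapped, which was also so under quantile normalization (-1.04).

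The *H19* signal was lower at probes farther from the 3′ end. The WT cells averaged 17.99 at 57 bases, 15.63 at 321, 11.99 at 678 and 12.66 at 738, and lay at the floor at 982. The other *H19* probes did not all point the same way in the difference between genotypes. The next probe from the 3′ end, A_30_P01021588, read 16.93, 17.04, 17.43 and 16.83 in WT cells and 17.38, 16.77, 15.64 and 16.73 in KO cells, a difference of -0.42 (SD 0.54). The difference was 0.09 (SD 0.61) at A_30_P01025068, 0.53 (SD 0.65) at A_30_P01028007, 0.30 (SD 0.68) at A_30_P01028827 and 0.12 (SD 0.62) at A_30_P01026972. So the 2 probes nearest the 3′ end were lower in the mean of KO cells and the 4 next ones higher, each by less than the SD between cells, and the mean difference over these 6 probes was 0.02. KO cell 1 was the highest of all 8 cells at each of those 4 probes, from 13.50 to 16.37. At the probe farthest from the end, A_55_P1961125, 7 cells had a detected signal and KO cell 3 alone rose above the floor, to 8.30, which gave a difference of 0.67 (SD 0.94). KO cell 3 had the lowest *H19* of all 8 cells at the 3 probes nearest the end. Across the 8 cells, Pearson's r between 2 of the 6 probes above the floor ran from 0.33 to 0.91 over 15 pairs, with a median of 0.70. The cells of a pair share their array and its scaling.

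*Igf2*, the growth factor gene beside *H19*, was read by a single probe, A_55_P2118173, at chr7:149839661-149839720 on the reverse strand, which begins at base 990 of its transcript. It was detected in WT cell 3 alone, at 5.93, and lay at the floor in the 7 other cells. The difference of -0.07 (SD 0.10) rested on that cell, was 0.10 with normexp background correction, and gives no fold. The arrays carry no other *Igf2* probe, so whether transcripts that this probe does not reach were present was not measured. At their probes with the highest mean, *H19* and *Igf2* thus differed in whether they were seen at all: 8 of 8 cells for *H19* and 1 of 8 for *Igf2*. The part of probe position in this was not tested.

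*Igf2r*, the clearance receptor for IGF2, was detected in all 8 cells by the probe A_51_P125467 at chr17:12875409-12875467. It read 15.39, 13.99, 14.65 and 14.36 in WT cells and 15.16, 14.30, 14.37 and 13.53 in KO cells. The cells of the genotypes overlapped, with WT cell 1 highest and KO cell 4 lowest. The difference was -0.26 (SD 0.63), and without KO cell 4 it was 0.01. Within the slide rows it was -0.23, 0.31, -0.28 and -0.83. This probe is spotted 10 times on each array. Its 9 or 10 usable spots on an array had SDs from 0.048 to 0.227, with a median of 0.070, and the 8 cells had an SD of 0.599. Spots repeat the hybridization alone, so that their SD covers array error and not the amplification of a cell's cDNA.

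*Igf1r*, the signaling receptor for IGF1 and IGF2, stood in contrast to *Igf2r*. At A_66_P105801 (chr7:75378461-75378520, base 11885 of its transcript) it read 12.13 in WT cell 1 and 7.68 in WT cell 4 and lay at the floor, undetected, in WT cells 2 and 3 and in all 4 KO cells. The difference was -2.13 (SD 2.16), which is 4.38-fold lower in KO cells with undetected cells at the floor. That fold is no lower bound, since only 2 of the 4 WT cells were measured and the others also lay at the floor. With a floor of 200 the difference was -1.13. WT cell 1 carried much of it, since the difference without that cell was -0.68, and without WT cell 2 or WT cell 3 it passed 5-fold, reaching -2.84. WT cell 1 had the fewest detected probes of the 8 cells (11370) and WT cell 4 the most (18175).

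**Figure D2:**
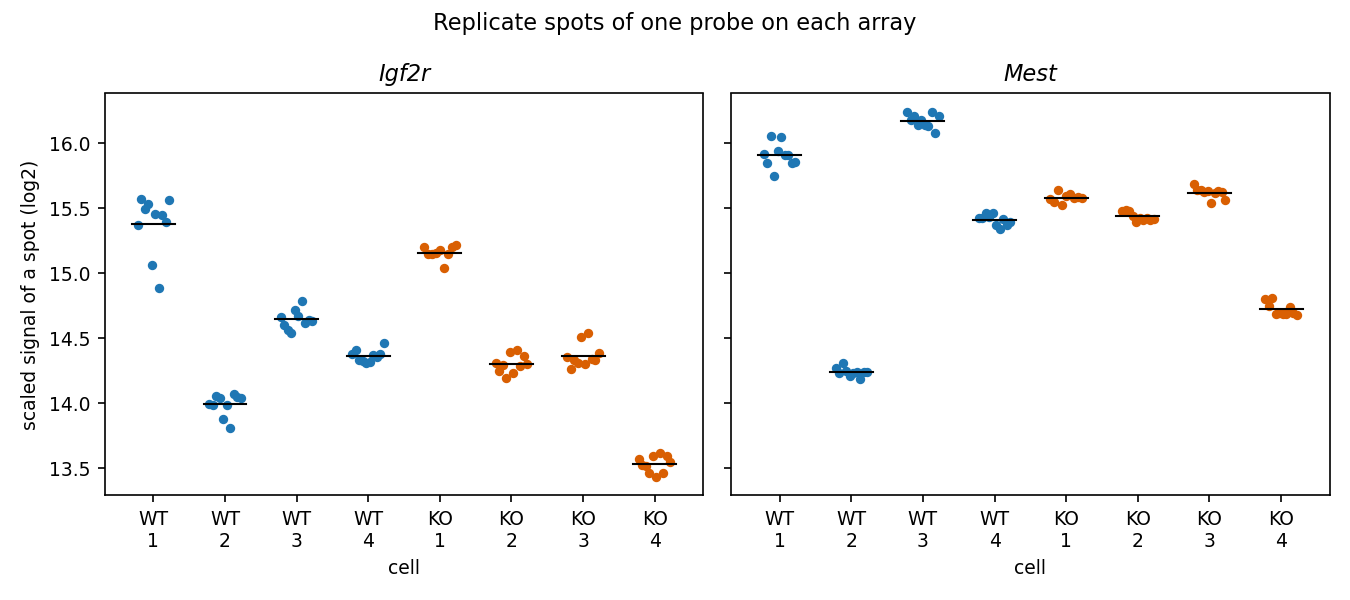
Scaled signal (log2) of each usable spot of the *Igf2r* probe (left) and of the *Mest* probe with the most signal (right) on each of the 8 arrays, with WT cells in blue, KO cells in orange and a bar at the mean of the spots. Spots of the same array lie close together (median SD 0.070 for *Igf2r* and 0.041 for *Mest*) relative to the distances between cells.

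Of the maternally expressed inhibitors, *Cdkn1c*, which encodes the cyclin-dependent kinase inhibitor p57, was detected in every cell and *Grb10*, an adaptor that dampens insulin and IGF receptor signaling, in few. *Cdkn1c* (A_51_P339540, chr7:150644753-150644812) read 17.29, 16.23, 16.40 and 16.84 in WT cells and 17.92, 15.63, 16.69 and 17.32 in KO cells. KO cell 1 was highest and KO cell 2 lowest, so that the KO cells spanned all WT cells. The difference was 0.20 (SD 0.77), and it was -0.14 when KO cell 1 was left out, 0.62 when KO cell 2 was, and between -0.45 and -0.04 under the 75th percentile, quantile normalization and both scalings on all probes. Within the slide rows it was 0.63, -0.61, 0.30 and 0.48. *Grb10* (A_55_P1955457, chr11:11833165-11833224) was detected in WT cell 2, at 10.27, and in KO cell 3, where it lay at the floor like the 6 cells in which it was undetected. Its difference of -1.16 (SD 1.64) rested on WT cell 2 and was 0 without it.

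*Plagl1*, a zinc finger transcription factor that regulates other imprinted genes, was the member that differed most between cells. At A_55_P1961968 (chr10:12850542-12850601) it read 14.96, 14.70, 8.77 and 14.55 in WT cells and 14.29, 13.88, 7.06 and 14.84 in KO cells. In each genotype 3 cells lay between 13.88 and 14.96 and cell 3 lay far below. These low cells, WT cell 3 and KO cell 3, lay in the same row of the slide. The part of the row in their values was not tested. The pooled SD of 3.34 was larger than that of 95.6% of the genes detected in all 8 cells, whose median was 0.757. The difference was -0.73, with -0.67, -0.81, -1.71 and 0.30 within the slide rows, and turned with the low cells, from -2.22 without WT cell 3 to 1.10 without KO cell 3.

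The probe A_52_P532456 (chr10:12851280-12851339) gave the same picture of *Plagl1*, with 14.91, 14.49, 8.49 and 14.34 in WT cells and 14.12, 13.66, 6.66 and 14.51 in KO cells. Pearson's r between these probes over the 8 cells was 0.9997. They share an identical run of 26 bases, shown because such probes may read some of the same RNA, so that they are not counted here as independent reads, although binding through this run was not measured:
shared by A_55_P1961968 and A_52_P532456: ATCTCCTAACCTTTGATGACTCTGTA
The other *Plagl1* probes share at most 6 bases with any probe of the gene. A_55_P2153251, which begins at base 2610 of the transcript, was detected in all 8 cells and read 8.93, 5.64, 6.02 and 5.64 in WT cells and 6.45, 6.47, 6.15 and 5.67 in KO cells. There WT cell 1 stood above the rest, and cell 3 of each genotype did not stand below the others. Apart from WT cell 1 all cells read at most 6.47, near the floor of 5.64, so that a low cell 3 could hardly be seen at this probe. A_55_P1961965, at base 2180, was detected in 7 cells and lay at the floor in all 8. WT cell 3 and KO cell 3 had 14293 and 16853 detected probes, within the range of the other cells. Their endothelial markers summed to 35685 and 35038, within the range of all cells (7045 to 79403). Whether depth or cell type had a part in their low *Plagl1* values was not tested.

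**Figure D3:**
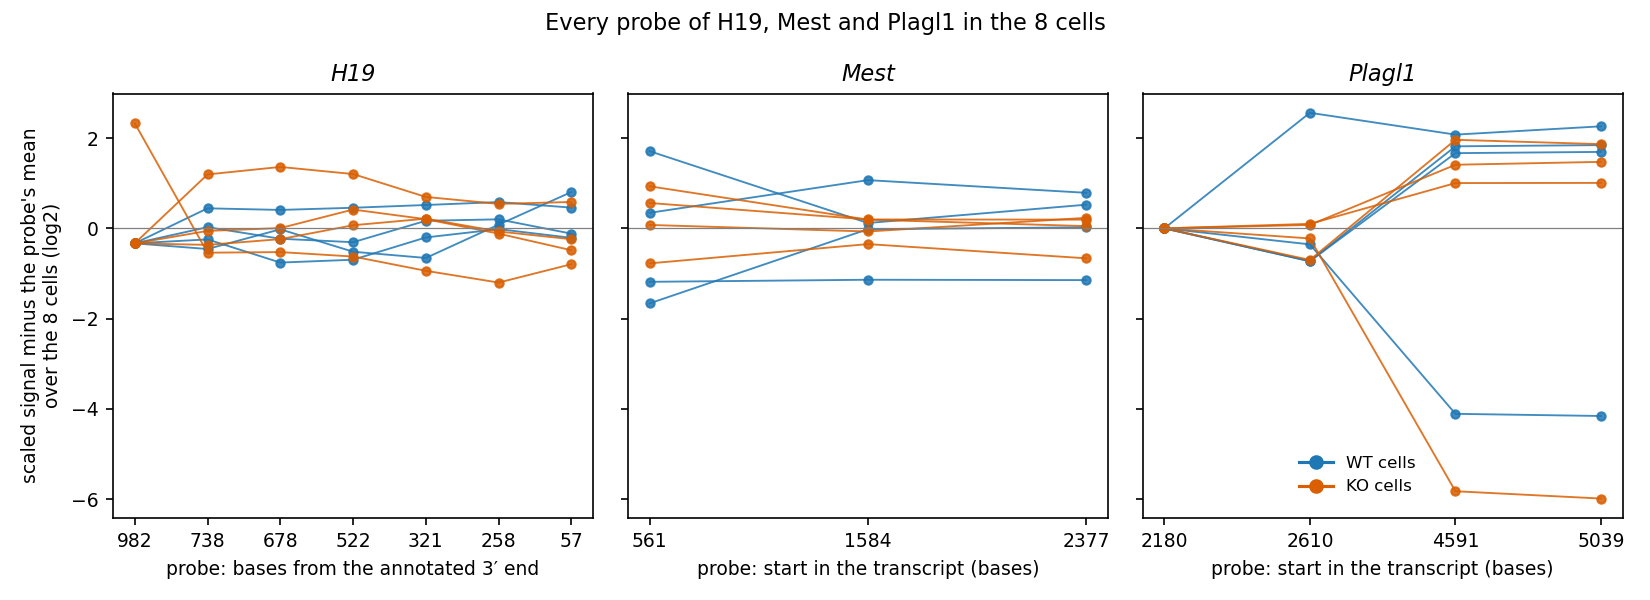
For each probe of *H19*, *Mest* and *Plagl1*, the scaled signal of each cell minus the mean of that probe over the 8 cells (log2), with lines joining the probes of a cell, WT in blue and KO in orange. *H19* and *Mest* lines of the genotypes cross and overlap, and for *Plagl1* WT cell 3 and KO cell 3 fall far below the other cells at the probes starting at bases 4591 and 5039.

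Among the paternally expressed members, *Mest*, which encodes a hydrolase-like protein of mesoderm, was detected in all 8 cells by each of its 3 probes. At A_51_P124535 (chr6:30698279-30698338) it read 15.91, 14.24, 16.17 and 15.41 in WT cells and 15.58, 15.44, 15.62 and 14.72 in KO cells. WT cell 2 was lowest and WT cell 3 highest, so that the WT cells enclosed all KO cells. The difference was -0.09 (SD 0.67), with -0.33, 1.20, -0.55 and -0.69 within the slide rows and SDs between spots of 0.033 to 0.091 on this probe, which is also spotted 10 times. The other probes gave -0.01 (SD 0.67) at A_55_P2090025 (chr6:30697385-30697444) and 0.40 (SD 1.20) at A_55_P2151868 (chr6:30692160-30692219). Pearson's r between the probes over the 8 cells was 0.51 to 0.92.

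*Dlk1*, which encodes a transmembrane protein related to NOTCH ligands, was read above the floor in WT cell 1 alone, at 7.63, by A_66_P117477 (chr12:110698721-110698781). That probe was also detected in WT cell 4, at the floor, and in no KO cell. The difference was -0.50 (SD 0.70), and it was 0 without WT cell 1. The other *Dlk1* probe, A_55_P2105371, was detected in WT cell 1 alone and lay at the floor in all cells. *Peg3*, a zinc finger gene of a paternally expressed cluster, was detected in no cell by either of its probes, A_52_P235861 and A_55_P2163319, so that no fold can be given.

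Across the 8 cells, *H19* and *Igf2r* had the highest Pearson's r of the 10 pairs among the 5 members detected in every cell, at 0.80, followed by *Igf2r* and *Mest* at 0.72 and *H19* and *Mest* at 0.47. *Mest* and *Plagl1* had the lowest, at -0.48, and the others lay between -0.02 and 0.38. The values share the array and its scaling: over the same cells *H19*, *Igf2r* and *Mest* had r of -0.69, -0.64 and -0.47 with the number of detected probes and 0.71, 0.61 and 0.47 with the log2 scaling factor. For *Cdkn1c* these were -0.00 and 0.23 and for *Plagl1* -0.17 and 0.29. The part of depth in the pairings was not tested. Of 10000 genes detected in at least 4 cells, the 3 most like *Plagl1* over the 8 cells were *Sf3b6* (r = 0.956), *Ptov1* (0.927) and *Septin7* (0.917). In all, 4 genes had r above 0.9 with it. Most of the spread of *Plagl1* came from the low WT cell 3 and KO cell 3, so that r with *Plagl1* rests largely on them. The 3 most like *Cdkn1c* were *Olfr629* (0.934), *Fermt2* (0.927) and an unnamed transcript, TC1602431 (0.926), with 10 above 0.9.

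Of 10 neighbours named for the members' imprinted clusters, 6 were detected in no cell, 2 in 1 cell, *Airn* in 6 and *Meg3* in all 8. *Meg3* is the maternally expressed noncoding RNA of the *Dlk1* cluster. It read 15.59, 11.16, 7.90 and 12.39 in WT cells and 14.34, 7.20, 14.18 and 13.03 in KO cells, a difference of 0.43 (SD 3.28). The cells of the genotypes overlapped throughout, and WT cell 3 and KO cell 2 were low. *Airn*, the noncoding RNA that silences the paternal *Igf2r*, was detected in 6 cells at its probe with the highest mean. That probe read 13.36 in KO cell 4 against at most 8.41 in any other cell (difference 1.38, SD 2.70). Over its 4 probes the mean difference was 1.23, with 2 probes higher in KO cells and 0 lower. The other of these 2 probes thus differed by more than the one given, and past 5-fold. *Copg2*, next to *Mest*, was detected in WT cell 2 alone (11.05), and *Ddc*, next to *Grb10*, in WT cell 1 alone (13.84). *Usp29* and *Zim1* near *Peg3*, *Kcnq1ot1* and *Phlda2* near *Cdkn1c*, and *Slc22a2* and *Slc22a3* near *Igf2r* were detected in no cell.

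Of 32 other genes of the IGF axis, 24 were detected in at least 1 cell and 8 in all 8. Of the 24, 2 were at least 5-fold higher in the mean of KO cells, 2 at least 5-fold lower and 20 in between. Over all genes detected in at least 1 cell, 3.41% were that much higher and 3.43% lower. The median of the 24 was -0.03 beside 0 over all detected genes. None of the 24 had cells that did not overlap between genotypes, against 1.2% higher and 0.261% lower over all detected genes. *Igf2bp2*, which encodes a protein that binds *Igf2* mRNA, read 5.64, 11.35, 11.10 and 10.74 in WT cells and 7.85, 5.64, 8.03 and 5.75 in KO cells. All KO cells lay below WT cells 2 to 4, and WT cell 1 lay at the floor. Its difference of -2.89 (SD 2.13) stayed past 5-fold with each cell left out in turn, the nearest to 0 being -2.34, but the mean over its probes, -2.29, was short of 5-fold. *Igf2bp3*, of the same family, read 5.64, 9.59, 5.64 and 10.71 in WT cells and 8.45, 9.17, 11.33 and 12.33 in KO cells. Its difference of 2.42 (SD 2.27) fell to 1.67 without WT cell 1.

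*Shc1*, an adaptor between receptor kinases and RAS, read 10.99 to 13.12 in WT cells 2 to 4 and 11.74 to 13.43 in KO cells. Its difference of 2.57 (SD 2.33) was 1.05 without WT cell 1, which lay at the floor. *Igfbp5*, a secreted IGF binding protein, read 5.64, 12.53, 16.07 and 12.83 in WT cells and 11.87, 5.64, 7.73 and 11.88 in KO cells. Its difference of -2.49 (SD 3.80) was -1.05 without WT cell 3.

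*Igf1*, the other IGF ligand, was represented by 5 probes that did not read alike, which was noticed after their values were seen. The probe A_55_P2085979, annotated to transcript variant 2 (chr10:87378456-87378515), was detected in all 8 cells. Before scaling it spanned 661 to 1476, a 2.23-fold range against a 3.92-fold range of the scaling factors. Its difference was -0.04 (SD 0.50). As the probe with the highest mean it stood for *Igf1* in the counts of the IGF axis. There *Igf1* was counted as detected in all 8 cells and as lying in between. The probes A_55_P2085984 and A_55_P2031631, annotated to transcript variant 1 and overlapping on the genome (chr10:87393561-87393620 and chr10:87393581-87393640), were detected in WT cell 2, KO cell 2 and KO cell 4 alone. They read 10.25 and 10.28 in WT cell 2, 13.42 and 13.31 in KO cell 2 and 12.41 and 12.32 in KO cell 4. A_55_P2085974, farther along the same transcript (chr10:87399581-87399640), was detected in KO cell 2 (14.08) and KO cell 4 (8.18) alone. The overlapping probes had differences of 2.48 (SD 3.40) and 2.43 (SD 3.37). At A_55_P2085974 no WT cell was detected, and with undetected cells at the floor KO cells were 6.69-fold higher in the mean. That fold is no lower bound, since KO cells 1 and 3 also lay at the floor. Each value was carried by 2 of the 4 KO cells. WT cell 2 and KO cell 4 were the cells in which smooth muscle markers were high, whereas in KO cell 2 those markers summed to 66.0. The fifth probe, A_55_P2031636, lay at the floor in all cells.

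Of 44 other imprinted genes, 43 had a usable probe, 24 were detected in at least 1 cell and 4 in all 8. Of the 24, 3 were at least 5-fold higher in the mean of KO cells and none lower, against 3.41% and 3.43% of all detected genes. The median was 0.03. No gene of the 24 had cells that did not overlap between genotypes, against 1.2% higher and 0.261% lower over all detected genes. *Ndn*, a paternally expressed growth suppressor, read 11.70, 8.11, 5.64 and 8.18 in WT cells and 10.81, 11.15, 9.45 and 11.75 in KO cells, a difference of 2.38 (SD 1.89) that was 1.46 without WT cell 3. WT cell 1 lay among the KO cells and WT cells 2 to 4 lay below all of them. *Impact*, a regulator of translation, lay at the floor in all WT cells and KO cells 1 and 2 and read 12.08 and 12.51 in KO cells 3 and 4, a difference of 3.32 (SD 2.72) that was 2.14 without KO cell 4 and 1.91 over the mean of its probes. *Osbpl5*, a lipid transfer protein gene, read 12.64 in KO cell 1 and 10.42 in KO cell 4 and lay at the floor elsewhere, a difference of 2.94 (SD 2.49) that was 1.59 without KO cell 1.

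Of 7 genes that maintain imprints, 6 were detected in at least 1 cell and 3 in all 8, with a median difference of 0.27. Against 3.41% and 3.43% of all detected genes, none was at least 5-fold higher and 1 was at least 5-fold lower. That was *Uhrf1*, which brings the maintenance methyltransferase to replicating DNA. It read 14.84, 11.96, 12.41 and 12.61 in WT cells and 7.77, 11.23, 8.49 and 13.83 in KO cells, and KO cells 1, 2 and 3 lay below all WT cells while KO cell 4 lay above all but WT cell 1. Its difference of -2.62 (SD 2.16) was -1.77 without KO cell 1 and -1.31 over the mean of its probes.

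**Figure D4:**
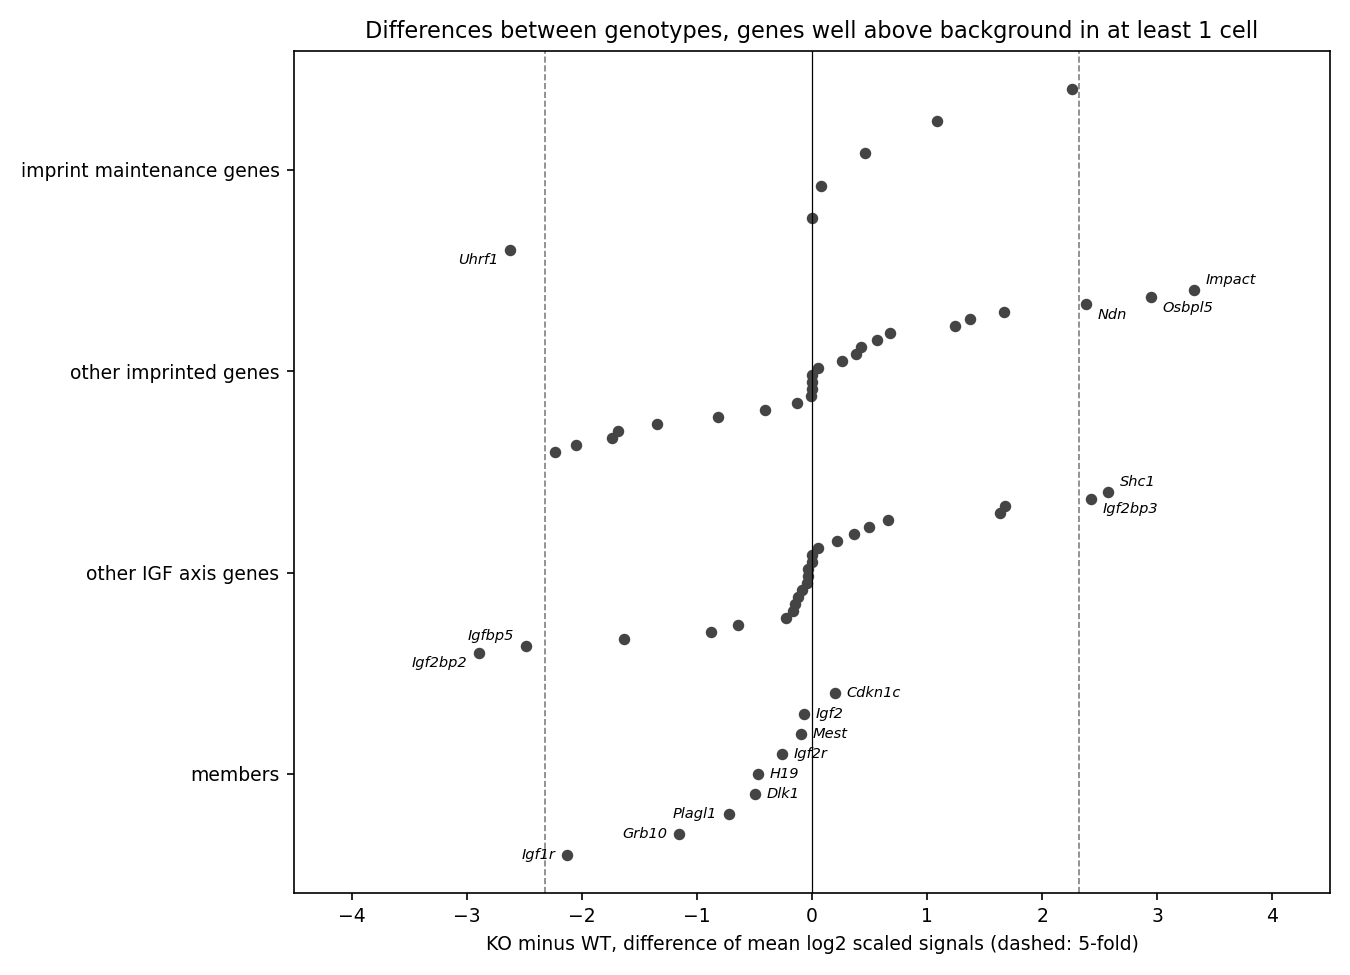
Difference of mean log2 scaled signals (KO minus WT) for the members, the other IGF axis genes, the other imprinted genes and the imprint maintenance genes that were well above background in at least 1 cell, each point a gene at its probe with the highest mean, in order within its row, with dashed lines at 5-fold. No member lies past the dashed lines, *Igf1r* at -2.13 is the nearest, and 8 genes of the other lists lie past them. Over all genes detected in at least 1 cell, 3.41% were at least 5-fold higher and 3.43% at least 5-fold lower.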

How the data were processed

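Single-cell cDNA of endocardium was amplified, transcribed and hybridized to 1-colour Agilent arrays (design 028005, probes annotated on mm9). The intensity values deposited by the authors are Feature Extraction 12.0.2.2 processed signals, background-subtracted and detrended within each array and not normalized between arrays. The other deposited columns used are the flags of the same software for outliers, saturation and signal well above background. The embryo of each cell and the probes' exons are not given in the sources used here. Methods and labels differ on the tissue (ventricle or heart tube) and on the time in trypsin, which is shorter in the methods.

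Spots marked as controls or outliers were removed, replicate spots were averaged per probe, and 386 of 55681 non-control probes lacked a usable spot on some array and were dropped. A probe counted as well above background where the flag was set on more than 50% of the spots kept. Each array was scaled to its 50th percentile over 7570 probes that passed this call on every array, then a floor of 50 and log2 were applied. Accessions named 28131 probes through a RefSeq table (names only), and others kept the file's name. A gene is given by its probe with the highest mean. No member probe was saturated. Bounds set the dim group at the floor.

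Members are all named with every probe. Of the other lists, genes are named that lay at least 5-fold apart or whose cells did not overlap, or that neighbour a member in its cluster, and *Igf1* was added after its values were seen. For likeness, the 2 members detected in the most cells (ties: larger SD) each name the 3 genes with the highest Pearson's r. Members and lists were chosen with earlier results of these data known. No test was made and no p-value given, since each genotype is 1 sample, and the number of arrays limits the precision. The steps were tested on simulated data in which all probes lay far above the floor, so that the test does not cover dim genes. Alternatives were other percentiles, probe sets, floors, background corrections, detection calls and probe rules, quantile normalization, and leaving out each cell. Analyses used Python 3.11.15, numpy 2.4.6, pandas 2.3.3, matplotlib 3.10.9, R 4.3.3 and limma 3.58.1 (normexp and quantile alternatives).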

Additional observations from a re-analysis of the deposited data

Results flagged for a closer look

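Within a genotype, the gap of the highest or lowest cell to its nearest neighbour, divided by the range of the 4 cells, was above Dixon's 95% critical value for 4 values in 12 of 53 groups with a range. Chance flags about 1 in 20 groups, here 2.65, and probes of a gene are not independent groups. In 6 of the 12, the other 3 cells lay at the floor, so that the ratio is 1.0 by construction: *Igf2* in WT cell 3, the *H19* probe A_55_P1961125 in KO cell 3, the *Dlk1* probe A_66_P117477 in WT cell 1, *Grb10* in WT cell 2, *Copg2* in WT cell 2 and *Ddc* in WT cell 1.

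The *Plagl1* probe A_55_P1961968 was flagged in WT cell 3, with a ratio of 0.934, and in KO cell 3, with 0.877. The probe A_52_P532456, which shares 26 bases with it, was flagged in the same cells, with 0.912 and 0.891. The *Plagl1* probe A_55_P2153251 was flagged in WT cell 1, as the highest, with 0.887. *Igf2bp2* was flagged in WT cell 1, as the lowest, with 0.893.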

How the results depend on the processing

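Of 347 values recomputed under 11 settings that keep all cells, 314 stayed within the SD between cells or, for counts, within 1.5 times. Some of these could not move: a changed detection call, for example, leaves every member's difference as it was. No member's difference was past 5-fold in the main setting. Across these settings the sign of the difference changed for *Igf2*, *H19*, *Mest* and *Cdkn1c*. The median over the 7570 probes detected in all cells was 0.11 and lay between -0.02 and 0.29 under the other settings, beside differences of -0.47 to 0.20 for *H19*, *Igf2r*, *Mest* and *Cdkn1c*. Under quantile normalization *H19* was -1.04 and lower in all KO than in all WT cells (1 member in place of 0), and *Cdkn1c* was -0.45, with -0.19 under the 75th percentile. With the mean of all probes *H19* was 0.12. With normexp *Igf2* was 0.10 and *Peg3* 0.15. With a floor of 10, *Igf2* was -0.65, and with no floor *Peg3* was -0.27. With either of these floors 1 member, *Igf1r*, was at least 5-fold lower. With the positive-and-significant call, 9, 8, 8 and 10 members were detected in WT cells 1 to 4. In KO cells 1 to 4 it gave 8, 8, 8 and 9.

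The settings were applied to the other lists after the data were seen. IGF axis genes at least 5-fold higher numbered 0 under the 75th percentile, the floor before scaling, all probes for the percentile, normexp, a floor of 200 and only probes detected on all arrays, and 1 under quantile normalization. Those at least 5-fold lower numbered 1 with a floor of 10, no floor and the mean of all probes, and 0 with only probes detected on all arrays. Imprinted genes at least 5-fold higher numbered 5 with no floor and 1 with only probes detected on all arrays. Those lower numbered 1 under the 75th percentile, the floor before scaling and all probes for the percentile, and 3 with a floor of 10 or none. Maintenance genes at least 5-fold higher numbered 1 with a floor of 10 or none, and those lower 0 with the mean of all probes. The cause of these shifts was not tested.

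With each cell left out in turn, the differences ran from -0.10 to 0 for *Igf2*, -0.74 to -0.28 for *H19*, -0.53 to 0.01 for *Igf2r*, -2.84 to -0.68 for *Igf1r*, -0.66 to 0 for *Dlk1*, -0.49 to 0.15 for *Mest*, -0.14 to 0.62 for *Cdkn1c*, -1.54 to 0 for *Grb10* and -2.22 to 1.10 for *Plagl1*, and stayed at 0 for *Peg3*. The median over members ran from -0.53 to -0.10. Members at least 5-fold lower numbered 0 to 1, the 1 being *Igf1r* without WT cell 2 or WT cell 3, and members lower in all KO cells 0 to 1, the 1 being *H19* without KO cell 1. IGF axis genes at least 5-fold higher numbered from 0, with WT cell 1 left out, to 4, with WT cell 4 left out, and lower 1 to 3. Imprinted genes higher numbered 1 (without KO cell 4) to 3 and lower 0 to 2. Maintenance genes higher and lower numbered 0 to 1 each. Their medians ran from -0.16 to 0.02, -0.00 to 0.09 and -0.13 to 0.57.

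No paired analysis was possible because no test was made. Cells of the same number shared a slide row, which was looked up after the data were seen, and with 1 cell of each genotype per row the mean of the differences within rows equals the difference given. A block by slide or scan was not run, since there was 1 of each. Signals under the floor, which hold many detected probes, set a limit on every dim gene here.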
